A study of Rattus norvegicus with 45 samples.

Results

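The genes described here encode the constitutive proteasome: the core particle, its regulatory particle, the chaperones that assemble the base of that particle, and the activators that can take its place. They were chosen by name, as all probe sets of the array whose only gene symbol starts with Psma, Psmb, Psmc, Psmd or Psme, without the immunoproteasome subunits Psmb8, Psmb9 and Psmb10. The rule took 52 of 31042 probe sets, which stand for 38 genes. Of these genes, 36 are named subunits, chaperones or activators: 7 core alpha, 6 core beta, 6 ATPase, 3 other base, 8 lid, 3 chaperone and 3 activator genes. The other 2, Psmc3ip and Psme3ip1, matched by their letters only and encode no subunit. The catalytic subunit Psmb6 and the activator Psme3 lie on probe sets that carry several symbols, so they are not among the members. A Psma3 probe set shared with Psma3l was left out for the same reason, so Psma3 rests on its other probe set. Of the 52 probe sets, 49 passed the filter on low values, and all 38 genes kept at least 1 of them.

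The samples were total RNA of gastrocnemius, a mostly fast-twitch calf muscle, and soleus, a mostly slow-twitch one, from female SD rats. Rats were dosed for 14 days with cerivastatin, a cholesterol-lowering statin, or with vehicle (methylcellulose), and some also ran on a treadmill for 20 min/day at 20 m/min on 5 days/week. Exercised soleus was measured at 1.0 mg/kg/day in 4 rats and with vehicle in 4 rats, and unexercised soleus at 1.0 mg/kg/day in 3 rats and with vehicle in 4 rats. Exercised gastrocnemius was measured with vehicle, 0.1, 0.5 and 1.0 mg/kg/day in 4, 4, 3 and 4 rats, and unexercised gastrocnemius at the same doses in 4, 4, 4 and 3 rats. Each of the 45 arrays is named below by its group and replicate number. Soleus samples whose title does not mention exercise were taken as unexercised, and the labels used here give no age.

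The proteasome is the protease complex that degrades most ubiquitin-tagged proteins of the cytosol and nucleus, and in skeletal muscle it takes apart sarcomere proteins that have been marked by ubiquitin ligases. Alpha subunits form the outer, gated rings of its barrel-shaped core, and beta subunits form the inner rings, where Psmb5, Psmb6 and Psmb7 carry the active sites. The ATPases of the base unfold a substrate and open the gate, other base subunits bind ubiquitin, and the lid removes the ubiquitin chain through Psmd14. Under interferon the immunoproteasome subunits Psmb9, Psmb10 and Psmb8 take the places of Psmb6, Psmb7 and Psmb5, and the activator made of Psme1 and Psme2 is induced as well. Genes of the core and the regulatory particle are known to be induced together by the transcription factor Nfe2l1 when proteasome activity falls.

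Promoters of 3 genes that fell at the high dose and hold an antioxidant response element, and of the activator gene that rose most, are shown because Nfe2l1 and the related Nfe2l2 bind that element and interferon acts through another motif. They run from 250 bases before to 50 bases after a start taken for each gene. Sequences are from RefSeq on GRCr8, 5′ to 3′ on the gene's strand. For Psma3 and Psme2 that start is not the outer end of the gene's RefSeq span. The Psme2 window lies wholly inside that gene's span (33048452 to 33053055), so it is not shown to lie upstream of the gene. Capitals mark the antioxidant response element TGACNNNGC, read on either strand, in the Psmb5, Psma3 and Psmd1 promoters. In the Psme2 promoter they mark GAAANNGAA, a core of the interferon-stimulated response element, a motif that was added after the values were seen.
Psmb5 (chr15:32047330-32047629, minus strand): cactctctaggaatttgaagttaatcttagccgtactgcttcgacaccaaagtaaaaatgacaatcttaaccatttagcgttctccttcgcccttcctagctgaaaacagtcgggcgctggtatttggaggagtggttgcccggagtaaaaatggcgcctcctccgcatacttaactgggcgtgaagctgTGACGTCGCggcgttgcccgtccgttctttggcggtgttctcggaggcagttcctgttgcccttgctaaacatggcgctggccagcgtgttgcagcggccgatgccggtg
Psma3 (chr6:95219499-95219798, plus strand): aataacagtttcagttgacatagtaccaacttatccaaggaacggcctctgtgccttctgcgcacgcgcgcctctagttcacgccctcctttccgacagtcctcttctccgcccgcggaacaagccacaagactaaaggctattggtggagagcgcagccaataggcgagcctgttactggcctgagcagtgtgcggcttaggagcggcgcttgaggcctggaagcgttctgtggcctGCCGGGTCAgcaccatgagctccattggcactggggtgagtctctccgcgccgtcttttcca
Psmd1 (chr9:94157721-94158020, plus strand): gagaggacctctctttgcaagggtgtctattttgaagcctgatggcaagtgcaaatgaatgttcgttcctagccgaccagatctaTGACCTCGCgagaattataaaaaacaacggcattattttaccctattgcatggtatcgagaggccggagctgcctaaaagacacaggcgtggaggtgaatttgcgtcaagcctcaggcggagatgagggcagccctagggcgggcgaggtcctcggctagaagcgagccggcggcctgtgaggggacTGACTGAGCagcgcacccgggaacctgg
Psme2 (chr15:33052702-33053001, minus strand): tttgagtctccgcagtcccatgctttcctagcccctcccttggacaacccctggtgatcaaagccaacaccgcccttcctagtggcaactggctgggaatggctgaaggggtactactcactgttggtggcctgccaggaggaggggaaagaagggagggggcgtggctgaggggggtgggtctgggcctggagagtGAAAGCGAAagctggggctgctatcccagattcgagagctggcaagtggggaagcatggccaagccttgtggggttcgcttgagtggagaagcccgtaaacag
Of the 38 genes, 34 matched a promoter in the table, all but Psma7, Psmd6, Psmd12 and Psmd14. The antioxidant motif was found in 7 of the 34 promoters (20.6%), those of Psma3, Psmb2, Psmb5, Psmd1, Psmd3, Psmd9 and Psme4, against 12.1% of all 33469 promoters of the same length. Psmd1 and Psmd9 each held 2 matches. Of these 7 genes, Psma3, Psmb5 and Psmd1 were called lower at the high dose in exercised gastrocnemius, as were 21.9% of all tested genes. Psmb2, Psmd3, Psmd9 and Psme4 were not called there on their brightest probe sets. Psma6, Psmb7, Psmc2 and Psmc5 were called lower there and held no match, and Psmd12, also called lower, had no promoter to search. The interferon motif, also read on either strand, was found in 6 of the 34 (17.6%), those of Psma4, Psmb2, Psmb3, Psmd7, Psmd11 and Psme2, against 9.71% of all promoters. It was also found in the promoters of the immunoproteasome genes Psmb8 and Psmb10, while no match was found for Psmb9 or for the activator gene Psme1. Of the 6 members with the interferon motif, only Psme2 was called at the high dose in exercised gastrocnemius, as higher. Of all tested genes 27.7% were called higher and 21.9% lower in that comparison. A match is a string of letters in this window, and binding was not measured.

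Values are linear signal intensities from the authors' MAS5 processing. Fold changes are limma's, on log2(signal + 12.4), with ± for the SE, and an adjusted p is Benjamini-Hochberg adjusted over all 21729 tested probe sets of a comparison. A gene was called higher or lower at an adjusted p under 0.05, on its brightest tested probe set, and the share of all 11684 tested genes that were called stands beside each first count. Probe sets differ in their response, so no gene's signal is set against another's.

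The labelled muscle was checked on fibre markers. The summed fast-fibre signal with vehicle was 149388 to 355989 in soleus and 537628 to 609675 in gastrocnemius, without overlap. The summed slow-fibre signal was 334807 to 531846 in vehicle soleus, while gastrocnemius arrays of all doses spread from 3304 to 379729, so the most slow-rich gastrocnemius samples reached the soleus range.

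One array stood apart from the others of its group. In replicate 3 of unexercised gastrocnemius at 0.1 mg/kg/day, all 30 genes of the core, base and lid lay below the mean of the vehicle arrays of that muscle and exercise state, with a median shift of -0.96 (log2). Its Gapdh and actin 5′ to 3′ signal ratios, which fall as RNA degrades, were 0.475 and 0.116, the lowest of the 45 arrays, whose ratios reached 0.888 and 0.707. Its summed adipocyte signal was also high, at 90483, against 631 to 11391 in those vehicle arrays. The part of RNA integrity or tissue make-up in its low values was not tested. The 2 arrays next in Gapdh ratio, both at 0.624, were replicate 1 of exercised soleus at 1.0 mg/kg/day and replicate 3 of unexercised vehicle soleus. There 29 of 30 genes lay below the vehicle mean in each, with median shifts of -0.49 and -0.28.

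**Figure D1:**
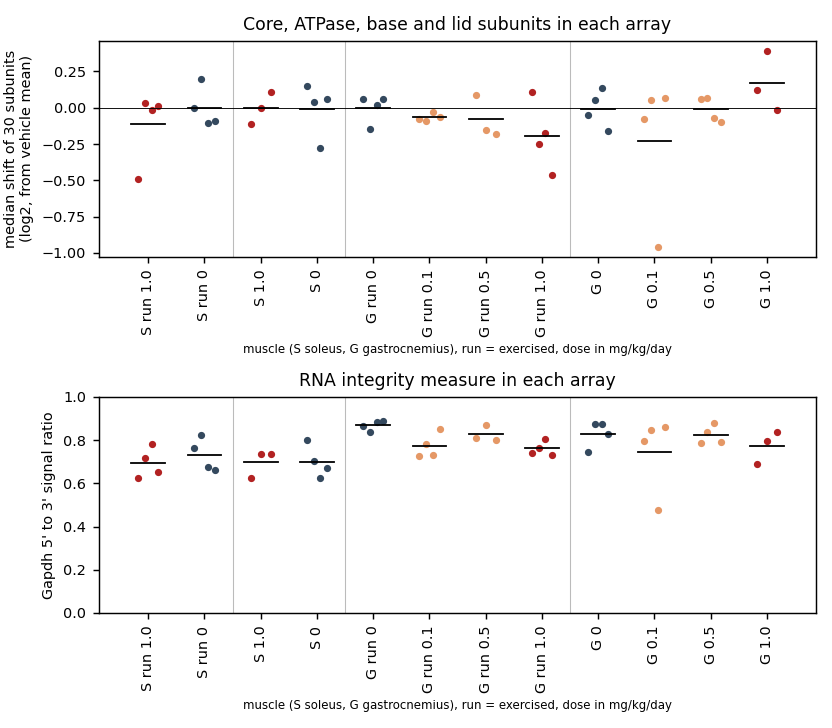
Each point is 1 of 45 arrays and each bar a group mean, with red for 1.0 mg/kg/day, orange for lower doses and dark blue for vehicle (S soleus, G gastrocnemius, run exercised). The upper panel shows the median log2 shift of the 30 core, base and lid genes from the mean of the same muscle and exercise state with vehicle, and the lower panel the Gapdh 5′ to 3′ signal ratio. One array at 0.1 mg/kg/day is lowest in both, at -0.96 and 0.475.

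In exercised gastrocnemius at 1.0 mg/kg/day, 8 of the 30 genes of the core, base and lid fell and none of them rose, while both genes of the interferon-inducible activator ring, Psme1 and Psme2, rose. Of the 36 named genes, 2 were called higher and 8 lower, against 27.7% of all tested genes called higher and 21.9% called lower. The share of members called lower is thus close to that of all genes, and the share called higher is below it. The 8 lower genes were spread over the classes: 2 of 7 alpha, 2 of 6 beta, 2 of 6 ATPase, 1 of 3 other base and 1 of 8 lid genes. None of the 30 genes of these classes was called higher, and the 2 higher genes were 2 of the 3 activators. The median change was -0.16 over the 36 genes and -0.19 over the 30, against 0.07 over all genes tested. Over the 36 it was 0.012 under quantile normalization and -0.26 with each array's median aligned, -0.079 without treated replicate 4 and -0.25 without treated replicate 1. A bulk sample cannot tell fewer cells of a type from less RNA per cell.

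Psmb5, the subunit with the chymotrypsin-like active site, had signals of 10184, 6215, 8539.8 and 5462, against 12869.8, 15192, 13165 and 13990.1 with vehicle. Every treated rat was below every vehicle rat, and replicates 2 and 4 were the lowest. The log2 fold change was -0.90 ± 0.22 (adjusted p = 0.0017). Psmb7, the subunit with the trypsin-like site, had 10021, 6396, 8806 and 6048, against 13638, 11762, 13885 and 12982 with vehicle. The groups did not overlap here either, and the same replicates were lowest. Its log2 fold change was -0.77 ± 0.24 (adjusted p = 0.0113), and under quantile normalization it was -0.44 with an adjusted p of 0.0964. The other 4 beta genes, which carry no active site, had log2 fold changes from Psmb1 at -0.20 ± 0.21 to Psmb2 at 0.17 ± 0.17, and none was called.

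**Figure D2:**
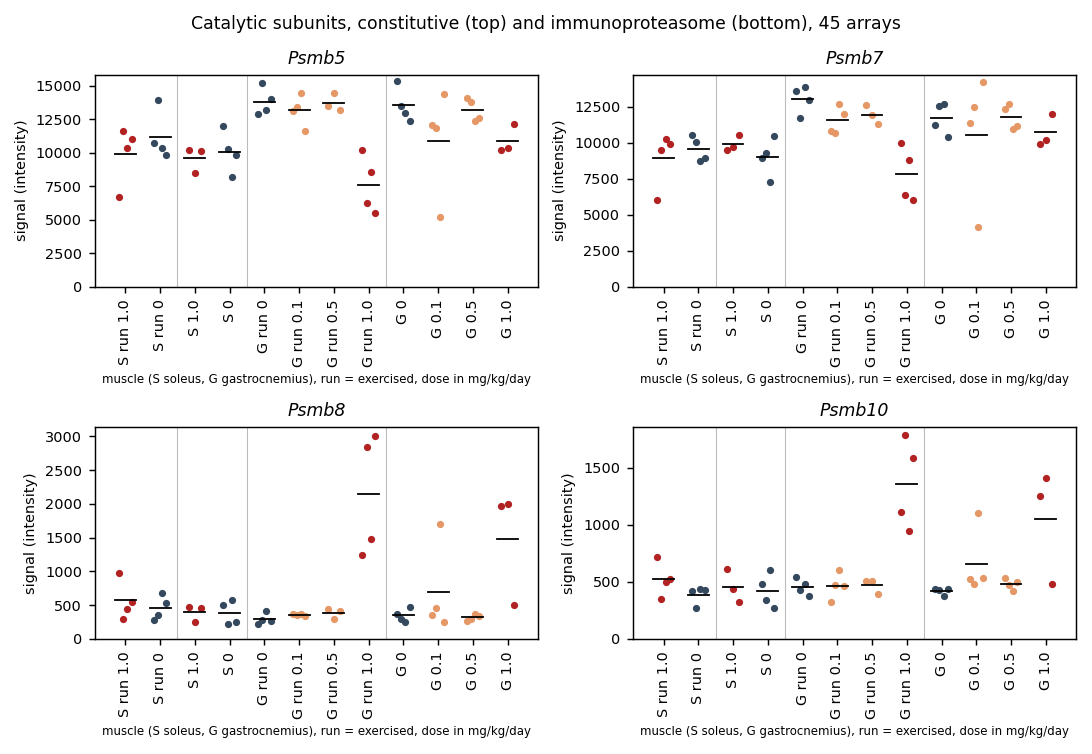
Signal intensity of 2 constitutive catalytic genes (Psmb5, Psmb7) and 2 immunoproteasome genes (Psmb8, Psmb10) in each of 45 arrays, with bars at group means, red for 1.0 mg/kg/day, orange for lower doses and dark blue for vehicle (S soleus, G gastrocnemius, run exercised). In exercised gastrocnemius at 1.0 mg/kg/day Psmb5 and Psmb7 lie below all vehicle arrays of exercised gastrocnemius, and Psmb8 and Psmb10 above all of them.

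Among the alpha genes, which build the gated outer rings, Psma3 and Psma6 were called lower. Psma3 had 1122, 1069, 971 and 969, against 1438, 1369, 1725 and 1431 with vehicle, a log2 fold change of -0.52 ± 0.17 (adjusted p = 0.0163). Psma6 had 12137, 10201, 12846 and 9096, against 15068, 15643, 15215 and 15219 with vehicle, a log2 fold change of -0.48 ± 0.17 (adjusted p = 0.0208). In both genes the groups were separate. Psma7 was at -0.51 ± 0.23 without passing the test (adjusted p = 0.0768), and the other 4 alpha genes had log2 fold changes between 0.09 (Psma1) and 0.37 (Psma2, adjusted p = 0.0617). The median of the 7 alpha genes was 0.09.

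All 6 ATPase genes had log2 fold changes below 0, with a median of -0.38, and Psmc2 and Psmc5 were called lower. Psmc2 had signals of 15233, 9579, 12323 and 9215, against 16594, 15677, 16894 and 18229.5 with vehicle. Replicate 1 was only just under the vehicle arrays, and replicates 2 and 4 lay far below. The log2 fold change was -0.57 ± 0.19 (adjusted p = 0.0149). Psmc5 had 5163, 3128, 4644 and 2826, against 8282, 4782, 6600.0 and 7126 with vehicle, with 1 treated rat above the lowest vehicle rat. Its log2 fold change was -0.78 ± 0.31 (adjusted p = 0.0402), a call lost with no filter on low values (adjusted p = 0.0507) and under quantile normalization (adjusted p = 0.0766). The smallest change among the ATPases was that of Psmc3, at -0.17 ± 0.17.

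Of the other base genes, Psmd1, the large scaffold beside the ATPase ring, was called lower, at 3074, 2154, 2617 and 1881, against 3169.7, 3336, 3804 and 3873 with vehicle. The groups did not overlap, and the log2 fold change was -0.56 ± 0.20 (adjusted p = 0.0243). Psmd2, the other scaffold and a docking site for ubiquitin shuttles, was at -0.30 ± 0.21 (adjusted p = 0.25), and the ubiquitin receptor Psmd4 at -0.11 ± 0.21 (adjusted p = 0.711). In the lid, Psmd12, a structural subunit, showed the largest fall of all members on their brightest probe sets. It had 4464, 1889, 2748 and 1872, against 5487, 4236, 5277 and 5592 with vehicle, where replicate 1 lay among the vehicle arrays and the other 3 lay below them. The log2 fold change was -0.99 ± 0.25 (adjusted p = 0.0026). The deubiquitinase Psmd14 pointed the other way, at 0.42 ± 0.18 (adjusted p = 0.0637), as did Psmd8, at 0.32 ± 0.23 (adjusted p = 0.276). The other 5 lid genes lay between -0.34 (Psmd7) and -0.065 (Psmd3), and none was called.

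The base chaperones Psmd5, Psmd9 and Psmd10, which help the ATPase ring form, had log2 fold changes of 0.26, 0.28 and 0.17, and none was called (lowest adjusted p = 0.198). Psmc3ip and Psme3ip1 were at -0.19 and -0.29 and were not called.

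The activators split. Psme1, one subunit of the interferon-inducible ring, had signals of 7278, 8173, 7555 and 8165, against 5085, 5311, 5243 and 3915 with vehicle. Its partner Psme2 had 3370.1, 4049.6, 3519 and 3564, against 1774, 1478, 1977 and 1302 with vehicle. In both genes all 4 treated rats stood above all 4 vehicle rats and close to one another. The log2 fold changes were 0.68 ± 0.21 for Psme1 (adjusted p = 0.0104) and 1.16 ± 0.30 for Psme2 (adjusted p = 0.00276). A second, dim probe set of Psme1 was at -0.40 ± 0.55 (adjusted p = 0.584), and averaged over both probe sets the gene was at 0.14 (adjusted p = 0.716). Psme4, the single-chain activator PA200, had 6462, 4249.8, 4908 and 3544, against 6664, 5371, 7704 and 9076 with vehicle on its brightest probe set, a log2 fold change of -0.60 ± 0.28 that missed the threshold (adjusted p = 0.0854). A second Psme4 probe set had 2433, 809, 1887 and 848, against 3036, 2799.7, 3738 and 4739 with vehicle and was called lower, at -1.39 ± 0.33 (adjusted p = 0.00138). The remaining one was at 0.11 ± 0.41 (adjusted p = 0.858), so the Psme4 probe sets do not point one way.

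**Figure D3:**
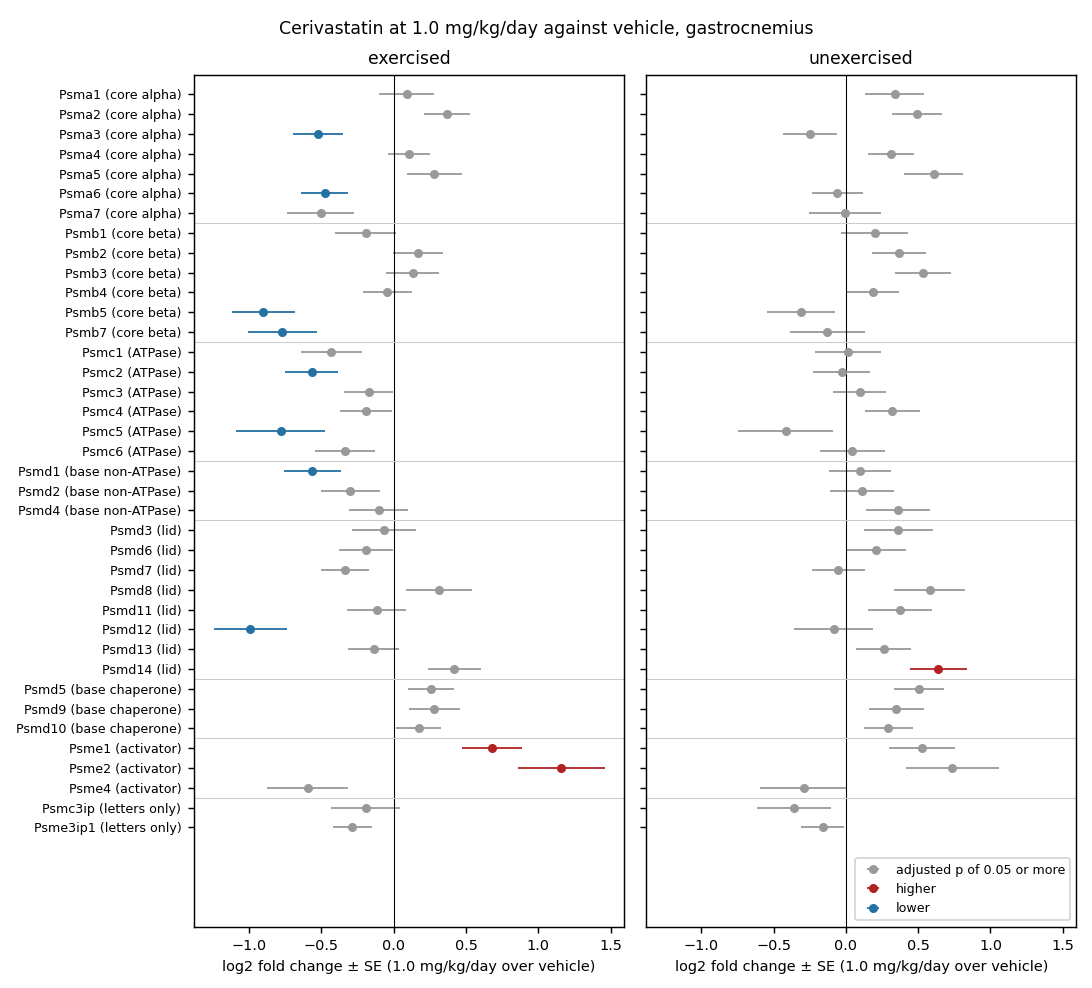
Log2 fold change (point) and SE (bar) of the 38 genes at 1.0 mg/kg/day over vehicle in exercised (left) and unexercised (right) gastrocnemius, by class. Blue marks genes called lower (8 at left, 0 at right), red genes called higher (2 at left, 1 at right) and grey the rest.

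The 4 treated rats were not alike. The median shift of the 30 core, base and lid genes from the vehicle mean was 0.11, -0.25, -0.18 and -0.46 in replicates 1 to 4, and that of the 6 ATPases -0.024, -0.56, -0.36 and -0.67. Without treated replicate 2 or 4 the genes called lower numbered 4 in either case (Psma3, Psmb5, Psmb7 and Psmd12), and without treated replicate 1 they numbered 12. Without vehicle replicate 3 they numbered 5. Left-out arrays ended the calls of Psma3 (vehicle replicate 3, adjusted p = 0.0581), Psma6 and Psmc2 (treated replicates 2 or 4, adjusted p from 0.0586 to 0.0891), Psmd1 (treated replicates 2 or 4 or vehicle replicates 3 or 4, highest adjusted p = 0.102) and Psmc5 (treated replicates 2 or 4 or vehicle replicates 1, 3 or 4, highest adjusted p = 0.134). With each array's median aligned, the median of all genes shifted to -0.031, and the same 10 genes were called. Under quantile normalization 5 genes were called higher and 4 lower, against 24.6% and 24.9% of all genes, so both shares were below those of all genes. There Psma6, Psmb7, Psmc2 and Psmc5 were no longer called, and Psma2, Psma5 and Psmd14 were called higher. Without the array of lowest Gapdh ratio, which belongs to another group of the same fit, 4 were called higher and 12 lower, including all 10, against 30.3% and 24.1% of all genes.

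Several lists of marker genes moved with this comparison, in which 27.7% of all tested genes were called higher and 21.9% lower. None of the 3 endothelium, 4 adipocyte or 8 slow-fibre markers measured was called. All 9 measured macrophage markers were called higher, and their summed signal was 54725 to 109338 in treated rats, against 4013 to 5347 with vehicle. All 6 cell-cycle genes were higher, with sums of 6009 to 14465, against 474 to 802, and 2 of 3 measured lymphocyte markers, with sums of 929 to 1725, against 292 to 363. Of the interferon response genes 6 of 7 were higher, with sums of 5006 to 6824, against 1317 to 1735. All 3 general muscle markers (Ckm, Acta1 and Mb) and 7 of 9 fast-fibre markers were lower, and the muscle marker sum was 72464 to 163124, against 221621 to 257658. The Gapdh 5′ to 3′ ratio was 0.733 to 0.806 in treated rats, against 0.837 to 0.888 with vehicle, while the actin ratio was 0.437 to 0.578, against 0.35 to 0.469. The summed slow-fibre signal was 4692 to 189209 in treated rats, against 3653 to 379729 with vehicle. The part of these in the proteasome values was not tested.

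In unexercised gastrocnemius at 1.0 mg/kg/day the lid gene Psmd14 rose and no other member passed the test. Of the 36 named genes 1 was called higher and 0 lower, against 7.32% and 3.96% of all tested genes. The log2 fold change was above 0 in 26 of 36, with a median of 0.24, against 0.068 over all genes tested. The gene called higher was Psmd14, the lid deubiquitinase, which had 6457, 7986 and 4921, against 3905, 4021, 4507 and 3832 with vehicle. All 3 treated rats were above the vehicle rats, replicate 2 furthest. The log2 fold change was 0.64 ± 0.20 (adjusted p = 0.0409). With each array's median aligned it was 0.55 (adjusted p = 0.119). Under quantile normalization 4 members were called higher, against 6.38% of all genes. The Psmd14 call was lost without any 1 of 6 of the 7 arrays compared (adjusted p from 0.0614 to 0.352), and held without treated replicate 3.

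The catalytic genes gave no call. Psmb5 had 10234, 10363 and 12133, against 15331, 13469, 12972 and 12395 with vehicle, without overlap but with a log2 fold change of only -0.31 ± 0.24 (adjusted p = 0.414). Psmb7 had 9947, 10226 and 12015, against 11265, 12576, 12695 and 10385 with vehicle, overlapping, at -0.13 ± 0.26 (adjusted p = 0.786). Psme1 had 8333, 8569 and 5325, against 7221, 3878, 4602 and 4927 with vehicle and a log2 fold change of 0.53 ± 0.23 (adjusted p = 0.128), while its dim second probe set was at -1.78 ± 0.59 (adjusted p = 0.0557). Psme2 had 3579.8, 4547 and 1647, against 2781, 1262, 1553 and 1895 with vehicle, at 0.74 ± 0.32 (adjusted p = 0.136). In both activator genes 2 treated rats stood above the vehicle rats and replicate 3 among them. Psme4 had 6876, 6511 and 5621, against 7483, 10395, 8678 and 5263 with vehicle, at -0.29 ± 0.30 (adjusted p = 0.569).

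Replicate 3 of the treated rats differed from the other 2 in more than the activators. All 9 measured macrophage markers were called higher in this comparison, as were all 6 cell-cycle genes, and 3 of 9 fast-fibre markers were lower. The summed macrophage signal of replicate 3 was 8369, against 62413 and 66347 in the other 2 treated rats and 2951 to 11611 with vehicle. The median shift of the 30 core, base and lid genes was 0.13, 0.39 and -0.013 in replicates 1 to 3. Without replicate 3, 18.2% of all genes were called higher, and 10 members were among them: Psma2, Psma4, Psma5, Psmb3, Psmd5, Psmd8, Psmd10, Psmd14, Psme1 and Psme2. Of these, Psme2 had the largest log2 fold change, 1.16 ± 0.32 (adjusted p = 0.00928), and Psmd8 the next, 0.92 ± 0.24 (adjusted p = 0.0063). Without replicate 1 or replicate 2 no member was called, and 0.00856% of all genes were called higher in either case. Without the array of lowest Gapdh ratio, of another group, 5 members and 13.7% of all genes were called higher. That set of 10 was named after its values were seen.

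**Figure D4:**
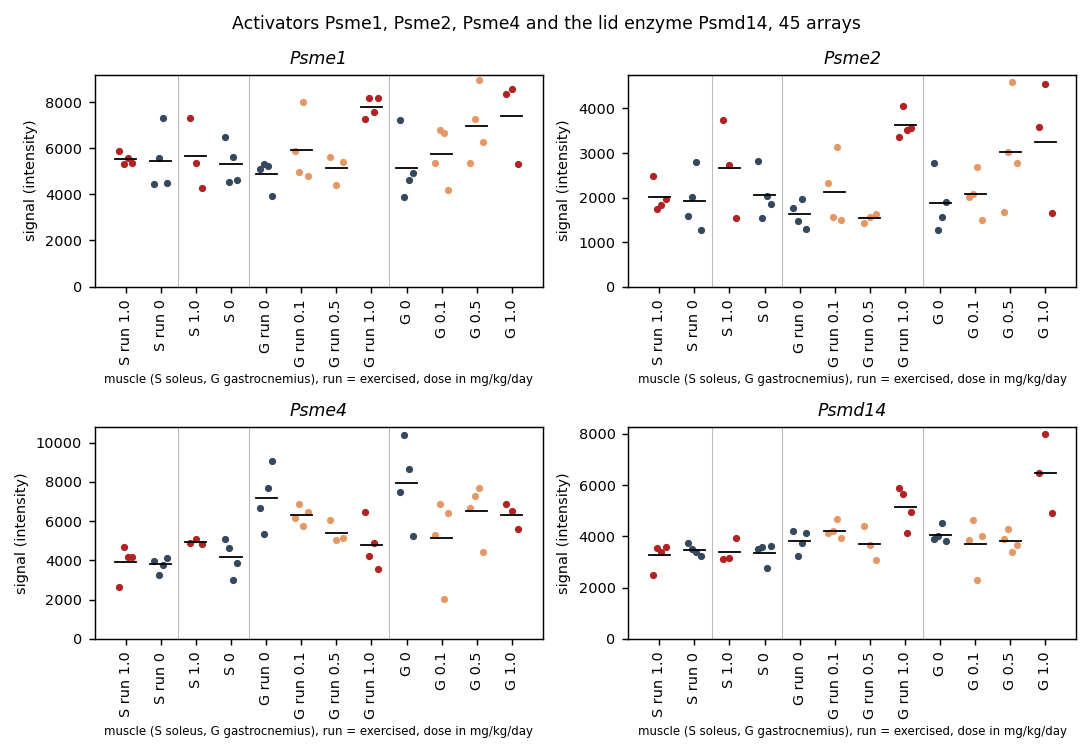
Signal intensity of the activator genes Psme1, Psme2 and Psme4 and of the lid enzyme gene Psmd14 in each of 45 arrays, with bars at group means, red for 1.0 mg/kg/day, orange for lower doses and dark blue for vehicle (S soleus, G gastrocnemius, run exercised). In unexercised gastrocnemius at 1.0 mg/kg/day replicate 3 has the lowest Psme2 signal, at 1647, against 3580 and 4547 in the other 2 treated rats.

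Whether exercise altered the response to the high dose was tested directly. The difference of the responses, exercised minus unexercised, was below 0 in 34 of 36 members, with a median of -0.37, against 0.028 over all genes. Both exceptions, Psme1 and Psme2, are activators, at 0.15 and 0.42. By limma 0 members were called, and 0% of all genes were called in either direction. At an unadjusted p under 0.05 there were 2 members, Psmd12 at -0.91 ± 0.37 and Psmd1 at -0.66 ± 0.29 (adjusted p = 0.705 for both), and 6.68% of all genes. The 36 differences share the same arrays, so their common sign is not 36 separate observations.

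At the lower doses and after exercise alone no member was called. By limma 0 of 36 were called at the low (0.1 mg/kg/day) or middle (0.5 mg/kg/day) dose in either exercise state, or for exercise against none with vehicle, and 0% of all genes were called in these comparisons. At an unadjusted p under 0.05, 1 member (low dose) and 0 (middle dose) passed in exercised rats, 3 (low) and 2 (middle dose) in unexercised rats, and 1 for exercise, against 2.22% to 3.79% of all genes. The 2 at the middle dose in unexercised rats were activators, a class whose log2 fold changes there ran from -0.27 to 0.66. Medians of the 36 log2 fold changes were -0.071 at the low dose and -0.072 at 0.5 mg/kg/day in exercised gastrocnemius. They were -0.21 at the low dose and -0.002 at 0.5 mg/kg/day in unexercised gastrocnemius, and 0.028 for exercise. The value of -0.21 rests on the array that stood apart, and without it the median was 0.022.

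In exercised rats Psmb5 had 13151, 13425, 14426 and 11615 at the low dose, and 13484, 14429.7 and 13156 at the middle dose. Psmb7 had 10848, 10659.6, 12705 and 12011 at the low dose, and 12606, 11946 and 11298 at the middle dose. All of these overlapped the vehicle arrays. In unexercised rats Psmb5 had 12092, 11868, 5192 and 14384 at the low dose, and 14084, 13763, 12367 and 12569.8 at the middle dose. Psmb7 had 11369.7, 12459.9, 4174 and 14247 at the low dose, and 12332, 12732, 10941 and 11178 at the middle dose. Here too the groups overlapped vehicle, and the array that stood apart was lowest in both genes.

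The activators overlapped vehicle as well. In exercised rats Psme1 had 5901, 4969.8, 8003 and 4810.4 at the low dose, and 5609, 4389 and 5407 at the middle dose. Psme2 had 2321, 1554, 3142 and 1503 at the low dose, and 1433, 1570.4 and 1641 at the middle dose. Replicate 3 at the low dose was the highest of these 7 rats for both genes. Psme4 had 6178, 6892, 5777 and 6491 at the low dose, and 6039, 5057 and 5168 at the middle dose. No rat stood far from the others of its group in that gene. In unexercised rats Psme1 had 5344, 6780.2, 6642 and 4189 at the low dose, and 5378, 7261, 8943 and 6253 at the middle dose. Psme2 had 2018, 2078, 2691 and 1495 at the low dose, and 1668, 3025, 4596 and 2777 at the middle dose. Replicate 3 at the middle dose was the highest for both genes, and for Psme2 it exceeded every unexercised rat at 1.0 mg/kg/day. Psme4 had 5310.2, 6894, 2058 and 6394 at the low dose, and 6697, 7284, 7715 and 4418 at the middle dose, and the array that stood apart was again the lowest.

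In soleus no member was called at the high dose. By limma 0 of 36 members and 0% of all genes were called in exercised or in unexercised soleus at 1.0 mg/kg/day against vehicle. At an unadjusted p under 0.05, 2 members passed in exercised and 0 in unexercised soleus, against 5.24% and 2.36% of all genes. Median log2 fold changes of the 36 members were -0.12 in exercised and 0.009 in unexercised soleus. The first rests on treated replicate 1, the array with a Gapdh ratio of 0.624, and was 0.002 without it. The second was -0.067 without vehicle replicate 3, the other array with that ratio. Exercise against none with vehicle, and the interaction of exercise with dose, also gave 0 calls in soleus, with 0 members and 2.5% and 2.82% of all genes under an unadjusted p of 0.05.

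In exercised soleus Psmb5 had 6701, 11601, 10388 and 11007, against 10701, 13950.2, 10321 and 9806 with vehicle. Psmb7 had 6027, 9491, 10246 and 9895, against 10553, 10076, 8707 and 8952 with vehicle. The low first values came from the array with a Gapdh ratio of 0.624, and the other 3 treated rats lay within the range of the vehicle rats. In unexercised soleus Psmb5 had 10198, 8466 and 10105, against 12016, 10257, 8151 and 9829 with vehicle. Psmb7 had 9503, 9676 and 10510.1, against 8975, 9279, 7308 and 10452 with vehicle. These groups overlapped.

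Psme1 had 5901, 5303, 5559.9 and 5361, against 4440.1, 5574, 7311 and 4503 with vehicle in exercised soleus, and 7315, 5362 and 4281, against 6506, 4536, 5614 and 4602 with vehicle in unexercised soleus. Psme2 had 2486, 1749, 1824 and 1972, against 1581, 2015, 2795 and 1282 with vehicle in exercised soleus, and 3741, 2724 and 1536, against 2813, 1538, 2043 and 1849 with vehicle in unexercised soleus. Neither gene separated the groups in soleus in either exercise state. Psme4 had 2651, 4702, 4174 and 4171, against 3994, 3283, 3778 and 4121 with vehicle in exercised soleus and 4868, 5096 and 4845, against 5110.4, 4635, 2999 and 3869.7 with vehicle in unexercised soleus, which also overlapped.

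With vehicle, most members had lower signals in soleus than in gastrocnemius. Soleus RNA input was 3 µg and gastrocnemius input 4 µg, so input and muscle cannot be told apart. In unexercised rats 0 of 36 members were called higher and 2 lower in soleus, against 3.83% and 4.54% of all tested genes, and 28 of 36 were below 0, with a median of -0.22. In exercised rats 0 were called higher and 2 lower, against 7.56% and 7.58% of all tested genes, and again 28 of 36 were below 0, with a median of -0.16. The all-gene median was 0.072 in unexercised and 0.074 in exercised rats. Both times the called genes were Psme4 and Psmd2, and all 6 ATPases were below 0. The Gapdh 5′ to 3′ ratio was 0.624 to 0.802 in unexercised soleus, against 0.745 to 0.874 in unexercised gastrocnemius, and 0.664 to 0.825 in exercised soleus, against 0.837 to 0.888 in exercised gastrocnemius. All 4 measured adipocyte markers summed to 3332 to 71612 in unexercised soleus, against 631 to 11391 in unexercised gastrocnemius, and to 2949.6 to 40887 in exercised soleus, against 874 to 2235 in exercised gastrocnemius, where 2 of 4 were called higher. The part of the ratio and of these markers in the differences was not tested. Without the array of lowest Gapdh ratio, which is in neither comparison, 4 members were called lower in unexercised and 5 in exercised rats, against 6.91% and 9.83% of all genes. Without the 3 arrays of lowest ratio these numbers were 3 and 6, against 5.5% and 10.9%.

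Psme4 had 5110.4, 4635, 2999 and 3869.7 in unexercised soleus, against 7483, 10395, 8678 and 5263 in unexercised gastrocnemius, a log2 difference of -0.92 ± 0.26 (adjusted p = 0.023). In exercised soleus it had 3994, 3283, 3778 and 4121, against 6664, 5371, 7704 and 9076 in exercised gastrocnemius, at -0.90 ± 0.26 (adjusted p = 0.0152). The muscles did not overlap in either exercise state. The other 2 Psme4 probe sets were not called, and the mean of all 3 gave -0.57 in unexercised rats (adjusted p = 0.262) and -0.63 in exercised rats (adjusted p = 0.165).

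Psmd2 had 6943, 8042, 6028 and 8506 in unexercised soleus, against 10206, 11565, 12614 and 10331 in unexercised gastrocnemius, at -0.61 ± 0.19 (adjusted p = 0.0499). In exercised soleus it had 6968, 7153, 7670.0 and 7135, against 11306, 9636, 12187 and 13002 in exercised gastrocnemius, at -0.67 ± 0.19 (adjusted p = 0.0189). Again the muscles did not overlap. The call in unexercised rats sat at the threshold, and leaving out any 1 of the 8 arrays ended it (adjusted p from 0.058 to 0.16). In exercised rats vehicle gastrocnemius replicates 3 and 4 each ended it (adjusted p = 0.0533 and 0.0689). Psme4 lost its call without gastrocnemius replicates 2 or 3 or soleus replicates 3 or 4 in unexercised rats (highest adjusted p = 0.0984), and without gastrocnemius replicate 4 in exercised rats (adjusted p = 0.0698).

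**Figure D5:**
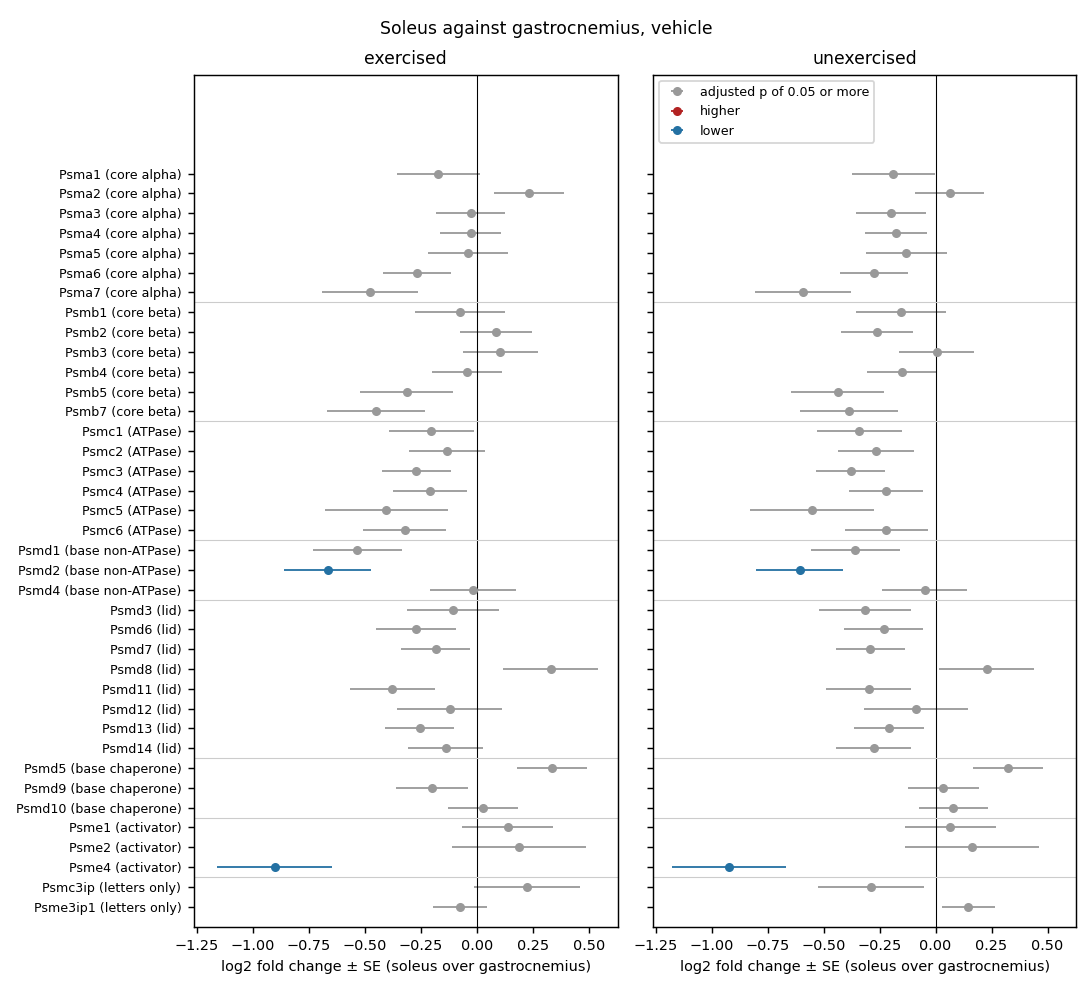
Log2 difference (point) and SE (bar) of the 38 genes, soleus over gastrocnemius with vehicle, in exercised (left) and unexercised (right) rats, by class. Blue marks the genes called lower in soleus, Psme4 and Psmd2 in both panels, and grey the rest, with no gene called higher.

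The difference between the muscles' responses to the high dose, soleus minus gastrocnemius, was tested as an interaction. In exercised rats 1 member was called higher and 1 lower, against 12.5% and 16.8% of all tested genes. The first was Psma3, at 0.66 ± 0.22 (adjusted p = 0.0253): it had 1529, 1577, 1499 and 1814, against 1259.9, 1676, 1618 and 1320.3 with vehicle in soleus, where the groups overlapped, in contrast to gastrocnemius. The second was the base chaperone Psmd5, at -0.63 ± 0.22 (adjusted p = 0.0322). It had 1123, 1471, 1325 and 1462, against 1622, 1904, 1379 and 2122 with vehicle in soleus, where the groups overlapped, and 1643, 1792, 1569 and 1572, against 1505, 1171, 1556 and 1282 with vehicle in gastrocnemius, where all treated rats were above vehicle. Within soleus, Psma3 was at 0.13 (adjusted p = 0.918) and Psmd5 at -0.37 (adjusted p = 0.908). The median of all genes was -0.083, and 0.049 with each array's median aligned, where Psmd5 was at -0.50 (adjusted p = 0.138) and no member was called lower. Under quantile normalization 1 member was higher and 5 lower, against 13.8% and 15% of all genes.

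The catalytic genes and the activators missed the threshold of that interaction. Psmb5 was at 0.71 ± 0.29 (adjusted p = 0.0713), Psmb7 at 0.64 ± 0.31 (adjusted p = 0.127), Psme1 at -0.63 ± 0.29 (adjusted p = 0.105) and Psme2 at -1.05 ± 0.43 (adjusted p = 0.0659). Without the 3 arrays of lowest Gapdh ratio, 10 members were called higher and 2 lower, against 18% and 22.5% of all genes. Psmb5 (0.89, adjusted p = 0.0011) and Psmb7 (0.82, adjusted p = 0.000803) were among the 10, while Psmd5 lost its call (-0.55, adjusted p = 0.0527). Single arrays also ended the call of Psma3 (soleus treated replicate 4 or vehicle replicates 1 or 4, gastrocnemius treated replicate 4 or vehicle replicate 3, highest adjusted p = 0.0589). The same held for Psmd5 (soleus treated replicates 1 or 3 or vehicle replicates 2 or 4, gastrocnemius treated replicate 2 or vehicle replicates 2 or 4, highest adjusted p = 0.086). In unexercised rats 0 members were called, against 0.00856% of all genes in either direction, with 5 members and 21% of all genes at an unadjusted p under 0.05. Without gastrocnemius replicate 3 at 1.0 mg/kg/day 6 members were called lower there, and 11.3% of all genes.

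Of 36 further genes of the pathway 29 were measured. In exercised gastrocnemius at 1.0 mg/kg/day 4 of them were called higher and 5 lower, against 27.7% and 21.9% of all tested genes. Both shares were below those of all genes. The immunoproteasome subunit Psmb8, which replaces Psmb5, had 1242, 2840.3, 1485 and 3001, against 214, 280.2, 408 and 271 with vehicle, at 2.75 ± 0.43 (adjusted p = 3.18e-05), Psmb9 was at 2.92 and Psmb10 at 1.51, and the fourth was the antioxidant transcription factor Nfe2l2 at 1.12 ± 0.23 (adjusted p = 0.000365). In the rats where Psmb5 and Psmb7 were lowest, replicates 2 and 4, Psmb8, Psmb9 and Psmb10 were highest. In unexercised gastrocnemius the 3 genes called higher were Psmb8 (1.85), Psmb9 (1.98) and Psmb10 (1.15), and 0 were lower. Of all tested genes 7.32% were called higher and 3.96% lower there.

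Nfe2l1, the transcription factor that drives proteasome genes when the protease is inhibited, was called lower in exercised gastrocnemius, with 1917, 1013, 2167 and 1149.6, against 3259, 2750.1, 3292 and 2618 with vehicle. The groups did not overlap, and the log2 fold change was -0.99 ± 0.23 (adjusted p = 0.00115). Ddi2, the protease that activates the Nfe2l1 protein, was also lower, at -0.87 ± 0.25 (adjusted p = 0.00545). Ecpas, which tethers the core to the regulatory particle, showed the largest fall, with 6349.7, 3183, 5769 and 3211, against 16625, 10959, 15585 and 18555 with vehicle, at -1.78 ± 0.32 (adjusted p = 0.000115). The remaining 2 were Ufd1, a cofactor of the segregase Vcp, at -0.87, and the ubiquitin receptor Adrm1, at -0.57. With vehicle, Nfe2l1 was higher in soleus, with 5074, 5333, 4367 and 5472, against 3073, 3592, 3230.1 and 2294 in unexercised gastrocnemius (0.74 ± 0.21, adjusted p = 0.025), and Ecpas was lower there, at -0.95 ± 0.29 (adjusted p = 0.0356). In unexercised rats 3 of the 29 pathway genes were higher and 2 lower in soleus, against 3.83% and 4.54% of all tested genes. In exercised rats 4 were higher and 5 lower, against 7.56% and 7.58%.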

How the data were processed

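Rat total RNA was labelled as biotin cRNA and hybridised to 1-colour expression arrays, 1 per muscle sample. Deposited values are linear signal intensities that the authors computed with MAS5, per the submitters' processing notes (version not given). On each array the mean over all probe sets without the highest and lowest 2% was 600.2 to 600.31, so arrays were scaled to one level. The number of arrays per group, 3 or 4, limits precision.

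Values were taken as log2(signal + 12.4), the offset being the 10th percentile of all values. The 21729 probe sets with a mean of at least 6.03 (the 30th percentile) were tested with limma 3.58.1 in R 4.3.3. Gastrocnemius comparisons used its 30 arrays, soleus comparisons 15 and muscle comparisons 45. Adjustment was by Benjamini-Hochberg within each of 16 comparisons, at 0.05, and a gene was represented by its brightest tested probe set. P-values rest on the spread between arrays of a group, pooled over all groups of a fit. The labels used here do not say whether both muscles came from the same rats, and the muscle comparisons treated their arrays as separate animals.

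Members, classes, marker and pathway lists and tests were chosen with earlier results of these data known. Values in every array are given for the called members that changed most (up to 5 each way) at the high dose and between muscles, and throughout for Psmb5, Psmb7 and the activators. Exceptions shown after their values were seen are Psma3, Psma6, Psmd1, Psmd5, Psmb8, Nfe2l1 and Ecpas.

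On data simulated for the high dose in exercised gastrocnemius, the test recovered 1.49%, 23.9% and 60.6% of changes of 0.5, 1 and 2 (log2). There were 3 false calls among 21729 probe sets. Only 67, 67 and 66 probe sets, drawn at random from all tested ones, were changed. In the real comparison 27.7% of genes were called higher and 21.9% lower. The setting thus differed from the data, and these shares do not give the recovery for the members. Alternatives were offset, filter, centring, quantile normalization, variance model, probe set rule, arrays fitted, replicate block and leaving out arrays.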

Additional observations from a re-analysis of the deposited data

Results flagged for a closer look

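Single arrays stood apart within their group of 4 in 9 of 99 group values checked by Dixon's test. Chance flags about 1 of 20 separate values, but here the values of a group share its 4 arrays, so they are not 99 separate tests. Of the 9, 6 came from replicate 1 of exercised soleus at 1.0 mg/kg/day and replicate 3 of unexercised vehicle soleus, both with a Gapdh 5′ to 3′ ratio of 0.624. In the first, the lid enzyme gene Psmd14 was at 2507, against 3401 to 3580 in the other 3 rats, the catalytic gene Psmb7 was at 6027, against 9491 to 10246, and the median shift of the 30 core, base and lid genes was -0.49, against -0.013 to 0.036. In the second, the ATPase gene Psmc2 was at 11794, against 14910 to 15633, Psmd12 at 3569.5, against 5083 to 5351, and Psmd14 at 2755, against 3518 to 3617. Replicate 3 of unexercised gastrocnemius at 0.1 mg/kg/day had a median shift of -0.96, against -0.08 to 0.069. Psmc2 in replicate 3 of exercised gastrocnemius at 0.1 mg/kg/day was high, at 18248, against 16384 to 16596. Psme1 in replicate 4 of exercised vehicle gastrocnemius was low, at 3915, against 5085 to 5311.

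The responses of the muscles to the high dose in exercised rats, soleus minus gastrocnemius, differed by limma's interaction test for 4 member probe sets. Psma3 was at 0.66 (adjusted p = 0.0253) and Psmd5 at -0.63 (adjusted p = 0.0322). A second probe set of Psme4 was at 1.66 (adjusted p = 0.00628), and a dim second probe set of Psmb5 at 2.44 (adjusted p = 0.0397).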

How the results depend on the processing

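Of 32 counts of members called, 25 were 0, and 24 of these were 0 in every alternative run. The other, lower calls for muscle by high dose in unexercised rats, ranged from 0 to 6 when 1 array was left out. At the high dose in exercised gastrocnemius the 2 higher calls became 1 with the mean of a gene's probe sets, 5 under quantile normalization, and 4 without the array, or the 3 arrays, of lowest Gapdh ratio, alternatives chosen after seeing the data. The 8 lower calls became 4 under quantile normalization and 4 to 12 with 1 array left out. In unexercised gastrocnemius the single higher call became 0 with the mean of probe sets, median centring, no filter, no mean-dependent prior variance or only the compared arrays, 4 under quantile normalization, 5 without the low-ratio arrays (1 or 3), and 0 to 10 with 1 array left out. For muscle by high dose in exercised rats, the 1 higher call became 2 with the mean of probe sets, 4 without the lowest-ratio array, 10 without 3 such arrays, and 0 to 4 with 1 array left out. The 1 lower call became 2 with the mean of probe sets, only the compared arrays or either removal of low-ratio arrays, 0 under median centring, 5 under quantile normalization, and 0 to 3 with 1 array left out. Between muscles in exercised rats the 2 lower calls became 1 with the mean of probe sets, 5 with only the compared arrays, 5 without the lowest-ratio array, 6 without 3 such arrays, and 0 to 2 with 1 array left out. In unexercised rats they became 1 with the mean of probe sets, median centring, no filter, no mean-dependent prior variance, an offset of 1 or quantile normalization, 4 without the lowest-ratio array, and 0 to 1 with 1 array left out. The cause was not tested. Psmb5, Psmd12 and Psme2 in exercised gastrocnemius kept direction and call in all alternatives run. None of the called genes, for which alternatives were run, changed direction.

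Same-numbered replicates deviated together, at a correlation above 0.1, in 7 of 45 pairs (correlations from -0.293 to 0.342). Such correlations cannot tell whether a number marks the same animal in several groups, and the labels used here do not say. With a replicate block, higher calls in exercised gastrocnemius at the high dose numbered 4, and lower calls between muscles in unexercised rats numbered 1, and Psmc5 in exercised gastrocnemius lost its call (adjusted p = 0.0513). Dim probe sets, such as the second ones of Psme1 and Psmb5, carry large errors.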

Other observations

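The gastrocnemius array that stood apart, replicate 3 of unexercised rats at 0.1 mg/kg/day, had low core, base and lid signals and high immunoproteasome signals. Psmb8 was at 1705 there, against 253 to 462 in the other 3 rats of its group. Psmb9 was at 1517, against 327 to 392, and Psmb10 at 1106, against 481 to 529. Its summed macrophage signal was 23112 and its summed adipocyte signal 90483, and their part in these values was not tested.

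Psmc3ip, a factor of meiotic recombination, and Psme3ip1, a partner of the Psme3 activator, share only letters with the subunits. Neither was called at the high dose in exercised gastrocnemius, at -0.19 ± 0.24 and -0.29 ± 0.14.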
